A study of Mus musculus with 10 samples.

Results

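Striatal GABAergic interneurons were followed through 7 marker genes, chosen by name. They are the peptide precursors Sst, Npy and Vip, the enzymes Nos1 and Th, and the calcium-binding proteins Pvalb and Calb2. All 7 symbols were found among the 32531 gene rows counted in each library. Expression was measured by TRAP-seq (translating ribosome affinity purification followed by sequencing) in adult mice of the Drd1-TRAP line CP73, in which the promoter of the dopamine D1 receptor gene drives an EGFP-tagged ribosomal protein L10a, so that ribosomes of D1 receptor cells can be captured from homogenised whole striatum. The strain background was FVB/N-Swiss Webster crossed to C57BL/6, with at least 9 generations on C57BL/6.

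There were 9 pull-down libraries of ribosome-bound RNA, 3 from mice that self-administered saline, 3 from mice that self-administered cocaine (intravenous, short access) and 3 from yoked mice. Total RNA of the same line gave 1 input library. All of them carried the transgene. What was given to the yoked mice, which group the input was taken from, and whether replicate libraries are different mice is not in the labels. The p-values below therefore measure only the spread between these libraries, which may be technical. A single input library means that the comparison with the input has no replicate of its own, and fewer cells of a type cannot be told apart from less RNA per cell.

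Interneurons are a small minority of striatal neurons and, unlike the medium spiny projection neurons around them, send their axons to nearby cells. A class that fires at a low threshold makes somatostatin (Sst), neuropeptide Y (Npy) and neuronal nitric oxide synthase (Nos1) together. Fast-spiking cells contain parvalbumin (Pvalb), a calcium buffer, and give strong inhibition to projection neurons. Smaller classes are marked by calretinin (Calb2) or by tyrosine hydroxylase (Th), the rate-limiting enzyme of catecholamine synthesis, while vasoactive intestinal peptide (Vip) marks cortical interneurons and few striatal cells. Th is also present in the axons of dopamine neurons that reach the striatum.

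Sst, Th and Vip are shown here by the 100 bases before their RefSeq start (GRCm38.p6, the patch release of mm10), because the text returns to the promoters that carry a cAMP response element, the site bound by CREB. Capitals mark the full element TGACGTCA in Sst and Th, and in Vip the partial element TGACG and the TATA box TATAAA. Positions count back from -1, the base before the start. The Sst stretch lies inside the gene span given below, and the Vip stretch runs into its own. For both, the start used is thus not the outer end of that span.
Sst promoter, chr16:23890845-23890944, minus strand: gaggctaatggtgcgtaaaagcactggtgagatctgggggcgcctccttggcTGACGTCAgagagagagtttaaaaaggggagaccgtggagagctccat
Th promoter, chr7:142899996-142900095, minus strand: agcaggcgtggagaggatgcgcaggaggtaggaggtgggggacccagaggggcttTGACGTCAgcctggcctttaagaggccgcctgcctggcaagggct
Vip promoter, chr10:5639118-5639217, plus strand: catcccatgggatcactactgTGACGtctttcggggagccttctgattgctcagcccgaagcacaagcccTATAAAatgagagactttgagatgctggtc

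The full element lay at -48 to -41 in Sst and at -45 to -38 in Th. In the 250 bases before the start, searched on both strands, 508 of 32851 promoters (1.55%) held TGACGTCA, 5836 (17.8%) held TGACG, which the full element contains, and 4063 (12.4%) held TATAAA. Nos1 held TGACG at -130 to -126, and the windows of Npy and both starts of Pvalb held none of the 3 motifs. A match describes letters in a window and is not evidence of a bound site.

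Levels are given as CPM, counts per 1e+06 gene counts, and are compared between libraries and not between genes, since gene length was not corrected for. Gene counts came to 12.5 to 45.2 times 1e+06 in the pull-downs and 40.5 times 1e+06 in the input, with the 3 saline libraries the shallowest. The 6 D1 medium spiny neuron markers were above the input in all 9 pull-downs, with a median ratio to the input of 2.35. The 6 D2 medium spiny neuron markers were at least 2-fold lower in all 9, with a median of 0.154. Each group ran on a sequencing lane of its own (saline on lane 3, cocaine on lane 1, yoked on lane 2, input on lane 5), and group and lane cannot be told apart.

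Sst (chromosome 16, 23889573 to 23891342) encodes the precursor of somatostatin, an inhibitory peptide. Its level was 8.13, 12.9 and 10.2 CPM in saline libraries 1, 2 and 3. Cocaine libraries held 10.7, 15.4 and 17.3 CPM and yoked libraries 15.2, 15.1 and 12.3 CPM, against 70.2 CPM in the input. Each pull-down was far below the input, saline 1 was the lowest and cocaine 3 the highest, and the groups overlapped.

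Npy (chromosome 6, 49822710 to 49829507) encodes neuropeptide Y, made together with somatostatin in the low-threshold class. Its level was 8.91, 8.06 and 6.5 CPM in saline, 7.51, 6.97 and 10.7 CPM in cocaine and 9.32, 8.93 and 6.65 CPM in yoked libraries, with 33.2 CPM in the input. Its pull-down values were the tightest of the 7 genes, with a mean of 8.18 ± 1.41 CPM (SD, n = 9) and a coefficient of variation of 17.3%, where counting error alone would give 6.60%.

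Nos1 (chromosome 5, 117866839 to 117958840) encodes the nitric oxide synthase of the low-threshold class. Saline libraries held 5.17, 9.98 and 7.01 CPM, cocaine libraries 6.72, 5.05 and 4.57 CPM, and yoked libraries 9.06, 18.3 and 1.46 CPM. The input held 15.2 CPM. Yoked 2 was above the input, the highest of the 9, and yoked 3 was the lowest, so that the yoked group alone covered the whole range. The coefficient of variation over the 9 pull-downs was 63.9%, against 6.89% from counting error alone.

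Pvalb (chromosome 15, 78191112 to 78206400) encodes parvalbumin. Its level was 2.15, 0.878 and 0.641 CPM in saline, 1.37, 0.269 and 1.99 CPM in cocaine and 2.05, 1.58 and 0.973 CPM in yoked libraries, against 10.4 CPM in the input. These rest on 9 to 79 counts per pull-down. Each of the 9 lay below the input, and every group spanned low and high values.

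Vip (chromosome 10, 5639193 to 5647617) encodes vasoactive intestinal peptide. Saline libraries held 0.49, 0.479 and 0.770 CPM, cocaine libraries 0.578, 0.389 and 1.12 CPM, and yoked libraries 0.803, 0.390 and 0.995 CPM, against 0.247 CPM in the input. Vip was thus the exception among the members, since each pull-down lay above the input. The input value rests on 10 counts, whose 95% interval (exact Poisson, counting error only) is 0.118 to 0.454 CPM.

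Calb2 (chromosome 8, 110142526 to 110168212) encodes calretinin and was the scarcest in the pull-downs by counts. Saline libraries held 9, 4 and 1 counts, cocaine libraries 5, 20 and 18 counts, and yoked libraries 5, 13 and 9 counts, against 42 in the input. The single count of saline 3 is below the floor of 3 counts taken as detection. In CPM the pull-downs ran from 0.0428 to 0.598 and the input held 1.04. The coefficient of variation was 64.8%, and counting error alone would give 35%.

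Th (chromosome 7, 142892779 to 142899995) encodes tyrosine hydroxylase. Saline libraries held 1.80, 1.44 and 1.11 CPM, cocaine libraries 1.64, 0.838 and 1.06 CPM, and yoked libraries 2.15, 3.21 and 0.420 CPM, against 3.06 CPM in the input. Its highest and lowest libraries were again yoked 2 and yoked 3, as for Nos1.

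**Figure D1:**
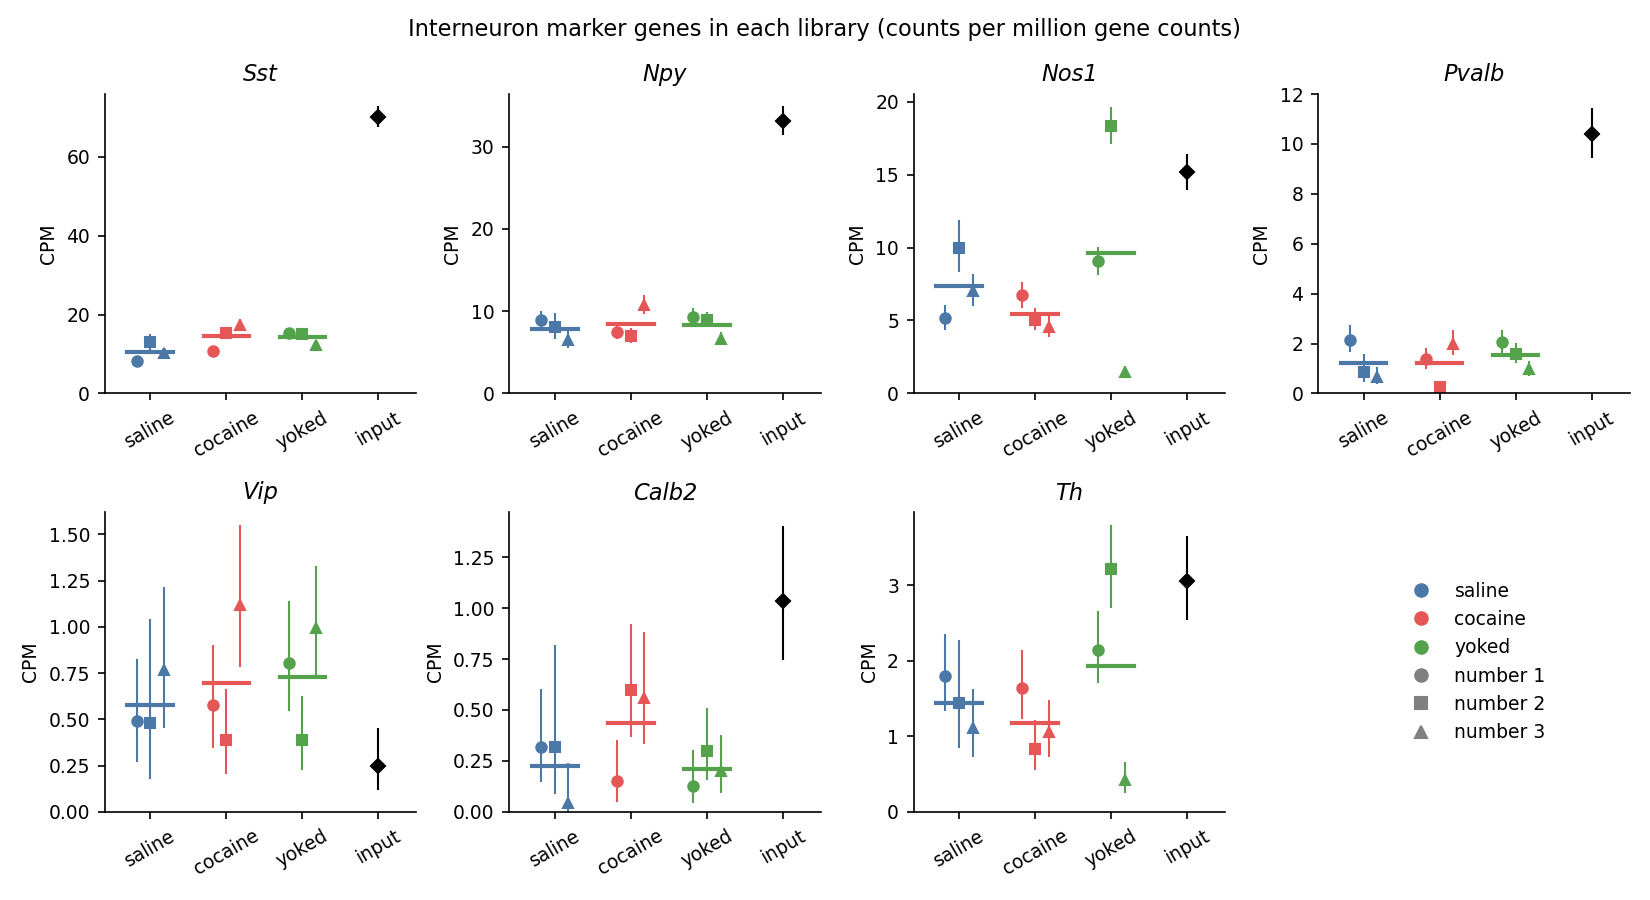
Level in CPM of the 7 genes (linear axes from 0, 1 panel a gene) in each of the 9 pull-downs, with the replicate number as the symbol, the group mean as a bar and the input in black; thin lines are 95% counting intervals. Sst, Npy and Pvalb lie far below the input in each pull-down, Vip lies above it, and yoked 2 and yoked 3 mark the ends of the range for Nos1 and Th.

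Most of the interneuron markers were depleted in the pull-downs. As the ratio of pull-down to input CPM (each with 0.5 CPM added, averaged over the 9 pull-downs on the log2 scale), Sst stood at 0.187, Npy at 0.255 and Pvalb at 0.155 of the input. Nos1 stood at 0.436, Calb2 at 0.502, Th at 0.527 and Vip at 1.53. The median ratio of all 13918 genes with at least 50 counts in the input or on average in the pull-downs was 0.946.

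Single pull-downs ranged from 0.122 to 0.252 of the input for Sst, from 0.208 to 0.333 for Npy and from 0.0705 to 0.243 for Pvalb. These 3 genes were at least 2-fold lower than the input in all 9 pull-downs, against 12.3% of the 13918 genes. Of the 5 members that passed the count minimum, the same 3 were below the input in all 9, against 37.6% of the 13918 genes, and Nos1 and Th were below it in 8 of 9. Calb2, below the input in 9 of 9, and Vip, below it in 0 of 9, did not pass the minimum.

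With the counts of the 9 pull-downs pooled, Sst stood at 0.189 of the input (95% exact conditional interval 0.180 to 0.199) and Calb2 at 0.279 (0.191 to 0.415). Vip stood at 2.78 (1.48 to 5.88), an interval that covers counting error only. The size of the ratio for these low genes moves with the CPM added: the log2 ratio of Calb2 was -1.70 with 0.1 CPM and -0.41 with 2 CPM, and that of Vip was 1.07 and 0.24. That of Pvalb was -1.93 with 2 CPM. None of these changed direction.

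**Figure D2:**
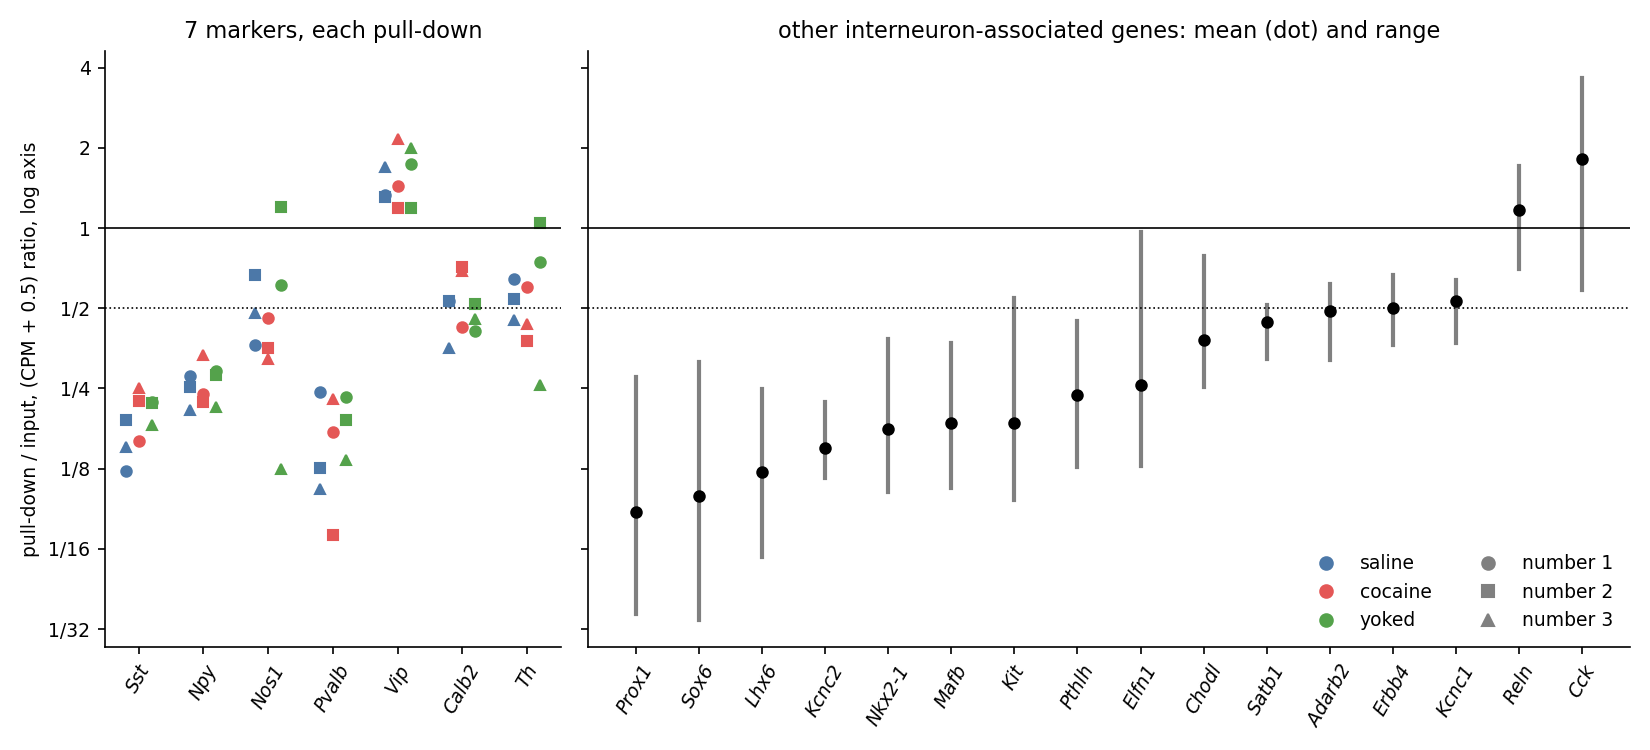
Ratio of pull-down to input (log axis, 0.5 CPM added) for the 7 genes in each pull-down (left) and for the 16 further interneuron genes that passed the count minimum, as mean and range over the 9 pull-downs (right). The solid line marks equality and the dotted line a ratio 2-fold lower; each point of Sst, Npy and Pvalb lies under the dotted line.

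The other genes of these cells were mostly below the input as well. Of 21 further interneuron genes, such as Lhx6 and Sox6, transcription factors of interneurons born in the medial ganglionic eminence, 16 passed the count minimum. Of these, 14 were below the input in all 9 pull-downs, 7 were at least 2-fold lower in all 9, and the median ratio was 0.247. The lowest were Prox1 at 0.086 and Sox6 at 0.099. Cck at 1.82, a peptide also made by other neurons, and Reln at 1.17, an extracellular protein, were the highest.

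Receptors for the peptides had ratios nearer to 1. Of 10 receptors for somatostatin, neuropeptide Y and vasoactive intestinal peptide, 9 passed the count minimum and their median ratio was 0.846, with 2 below the input and 2 above it in all 9 pull-downs. Sstr2, a somatostatin receptor, stood at 2.48 and Sstr4, another, at 1.46. The lowest were Vipr2 at 0.249 and Sstr1 at 0.458. Vipr2 held 17 counts over all 9 pull-downs together, against 71 in the input. The size of its ratio is therefore set largely by the 0.5 CPM added. With the pull-down counts pooled and no CPM added, Vipr2 stood at 0.0334 of the input.

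The 6 genes of the nitric oxide and cGMP pathway had a median ratio of 0.802. Gucy1b3, a subunit of the guanylyl cyclase that nitric oxide activates, stood at 1.72, and Prkg1, a cGMP-dependent kinase, at 1.0. Nos1ap, which binds the synthase, stood at 0.673 and Gucy1a2 at 0.679. Among the catecholamine genes, 4 of 7 passed the minimum with a median of 0.731. Pts, of biopterin synthesis, stood at 1.81 and Qdpr at 0.866, while Ddc, which follows Th in dopamine synthesis, stood at 0.617 and the vesicular transporter Slc18a2 at 0.462.

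Gad1 and Gad2, which make GABA in projection neurons and interneurons alike, stood at 1.18 and 1.22, and the vesicular GABA transporter Slc32a1 at 1.83. All 3 were above the input in all 9 pull-downs, a count for which no share over all genes was computed. These genes, shared by all GABA neurons, were thus higher in the pull-downs. Of the 7 subtype markers 6 had a mean ratio below 1, as had 53.6% of the 13918 genes. Calb2, among these 6, did not pass the count minimum.

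**Figure D3:**
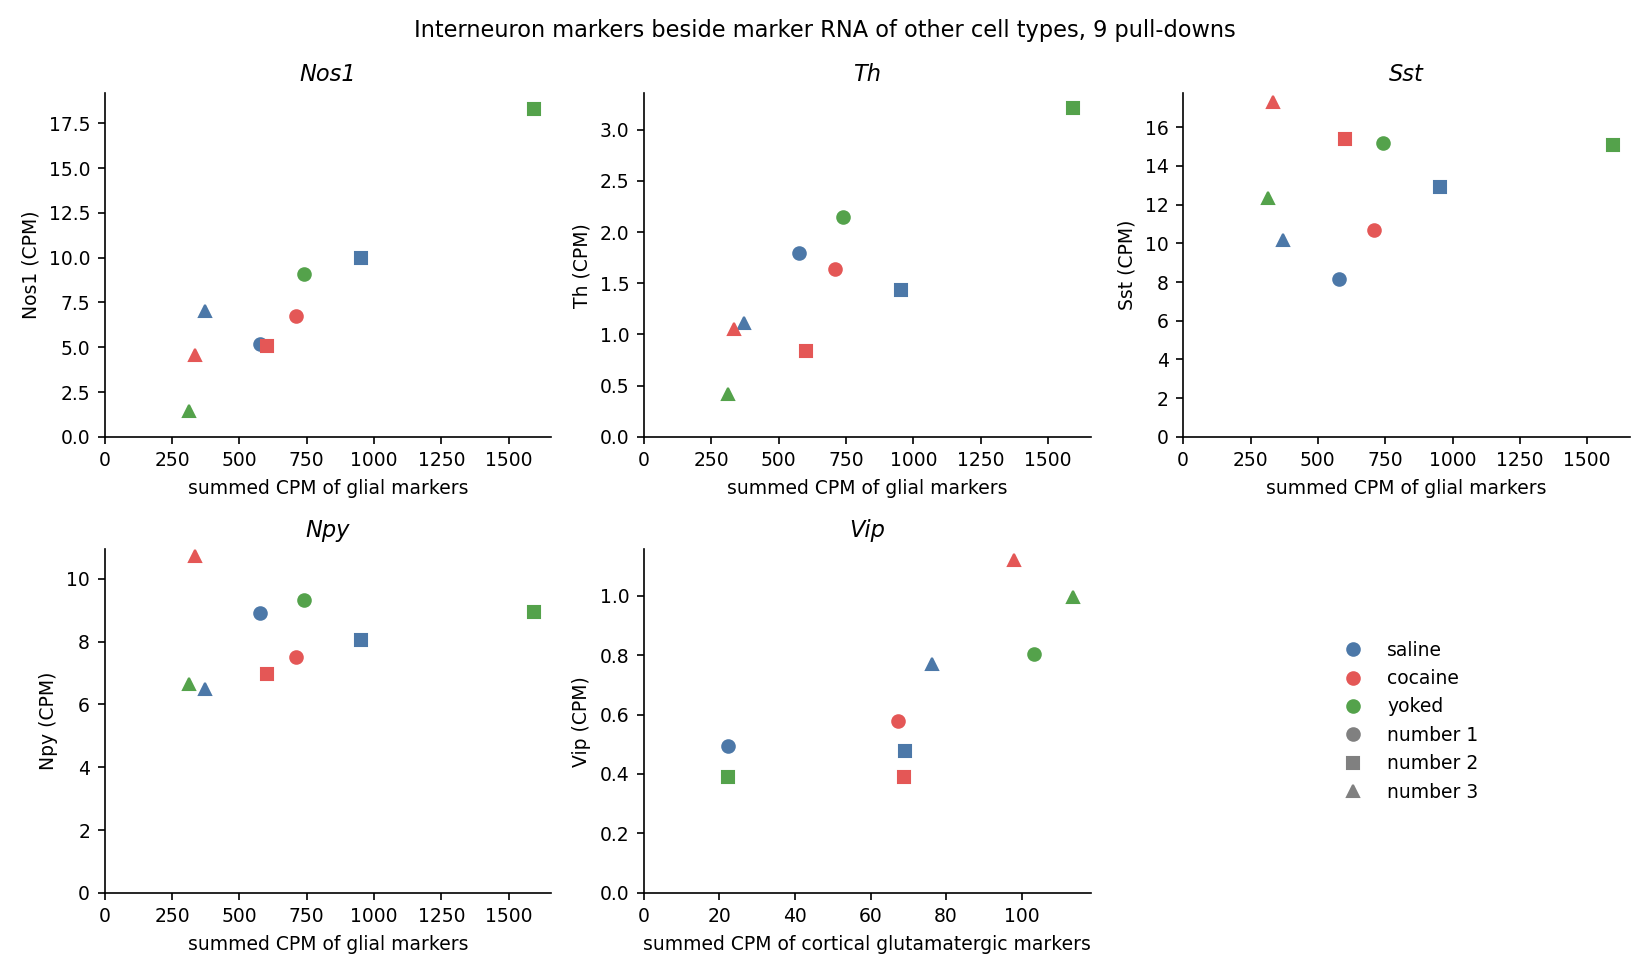
Level in CPM of Nos1, Th, Sst and Npy against the summed CPM of the 18 glial genes, and of Vip against that of the cortical glutamatergic genes, 1 point a pull-down. Yoked 2, at 1594 CPM of glial RNA, is highest in Nos1 and Th, and yoked 3, at 313 CPM, is lowest in both.

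Markers of other cells moved with some of the members. The summed level of 18 astrocyte, oligodendrocyte and microglial genes was 577, 953 and 372 CPM in saline, 709, 601 and 334 CPM in cocaine and 741, 1594 and 313 CPM in yoked libraries, against 4497 CPM in the input. It was highest in yoked 2 and lowest in yoked 3, as for Nos1 and Th. Sst and Npy did not share that order, and both were highest in cocaine 3, where the glial sum was 334 CPM. The part of these other cells in the results on Nos1 and Th was not tested.

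The summed level of 6 cortical glutamatergic genes was 22.2, 69.2 and 76.2 CPM in saline, 67.2, 68.9 and 98.0 CPM in cocaine and 103, 22.3 and 114 CPM in yoked libraries, against 34.7 CPM in the input. Of the 5 that passed the minimum, 1 had a ratio below that of the input and the median was 1.87. Vip was highest in cocaine 3, yoked 3 and yoked 1, the same 3 libraries in which this sum was highest, and the part of cortical RNA in the level of Vip was not tested. Cholinergic markers summed to 80.9 CPM in saline 2, 26.5 CPM in yoked 2 and 2.96 to 13.6 CPM in the other pull-downs, against 60.4 CPM in the input. Pituitary hormone genes summed to 389 CPM in saline 1 and to 0.530 to 6.23 CPM in the other pull-downs, against 2681 CPM in the input. The part of this RNA in the ratios to the input was not tested.

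No difference between saline, cocaine and yoked libraries was called for any of the 7 genes. The test was edgeR's quasi-likelihood test over 14680 genes, with a call at a Benjamini-Hochberg adjusted p under 0.05, and 0% of genes were called in each of the 3 comparisons. The share of genes at an unadjusted p under 0.05 was 2.84% in cocaine against saline (417 genes), 2.58% in cocaine against yoked (379) and 1.84% in yoked against saline (270). DESeq2 called 1, 0 and 0 genes and limma-voom 0, 0 and 0.

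Sst was the member with the largest difference relative to its error. Its mean was 10.4 ± 2.41 CPM (SD, n = 3) in saline libraries, 14.5 ± 3.39 CPM under cocaine and 14.2 ± 1.62 CPM under the yoked control. The log2 fold change of cocaine against saline was 0.55 (SE 0.23, 95% interval 0.05 to 1.04, edgeR unadjusted p = 0.0329, adjusted p = 0.999). That of yoked against saline was 0.49 (SE 0.23, 95% interval 0.0017 to 0.99, edgeR unadjusted p = 0.0493, adjusted p = 0.999). Both share the saline libraries. Cocaine against yoked gave 0.05 (SE 0.22, 95% interval -0.43 to 0.53). Sst therefore did not pass the test. By edgeR its unadjusted p in cocaine against saline was 0.157 without saline 1, 0.0608 without saline 3, 0.0825 without cocaine 2 and 0.161 without cocaine 3. It was 0.00592 without cocaine 1 (log2 fold change 0.74) and 0.0150 without saline 2 (0.71), and no adjusted p passed the threshold.

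Npy differed little between groups, with means (SD, n = 3) of 7.82 ± 1.22 CPM for saline, 8.40 ± 2.03 CPM for cocaine and 8.30 ± 1.44 CPM for yoked libraries. Its log2 fold change was 0.17 (95% interval -0.32 to 0.66) for cocaine against saline and 0.04 (-0.44 to 0.52) for cocaine against yoked. Sst and Npy are made together in the low-threshold class, but Npy need not be confined to it. The fitted difference of cocaine from saline was 0.55 for Sst and 0.17 for Npy, and the difference between those values was not tested.

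The intervals of the other 5 genes were wide. Nos1 gave a log2 fold change of -0.38 (95% interval -1.93 to 1.18) for cocaine against saline, -0.79 (-2.32 to 0.74) for cocaine against yoked and 0.42 (-1.12 to 1.96) for yoked against saline. Its yoked mean of 9.61 ± 8.44 CPM (SD, n = 3) shows the spread of yoked 2 and yoked 3. Th gave -0.24 (-1.49 to 1.0), -0.68 (-1.89 to 0.53) and 0.44 (-0.78 to 1.66) in the same order. Both genes turned on 2 libraries. Without yoked 2 the value of cocaine against yoked was 0.080 for Nos1 and -0.096 for Th, and without yoked 3 it was -1.30 and -1.15 (edgeR unadjusted p = 0.0123 for Th, adjusted p = 0.727). Over all alternative fits (edgeR, DESeq2 or limma-voom) the smallest unadjusted p of Nos1 in this comparison was 0.000969, and the smallest adjusted p was 0.727.

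Calb2 had the largest fold changes, 1.06 (95% interval -0.76 to 2.87) for cocaine against saline and 1.07 (-0.63 to 2.77) for cocaine against yoked, on 1 to 20 counts per library. Pvalb gave 0.03 (-1.34 to 1.40) and Vip 0.30 (-1.01 to 1.62) for cocaine against saline. Differences of this width cannot be told from 0 at this depth and spread.

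**Figure D4:**
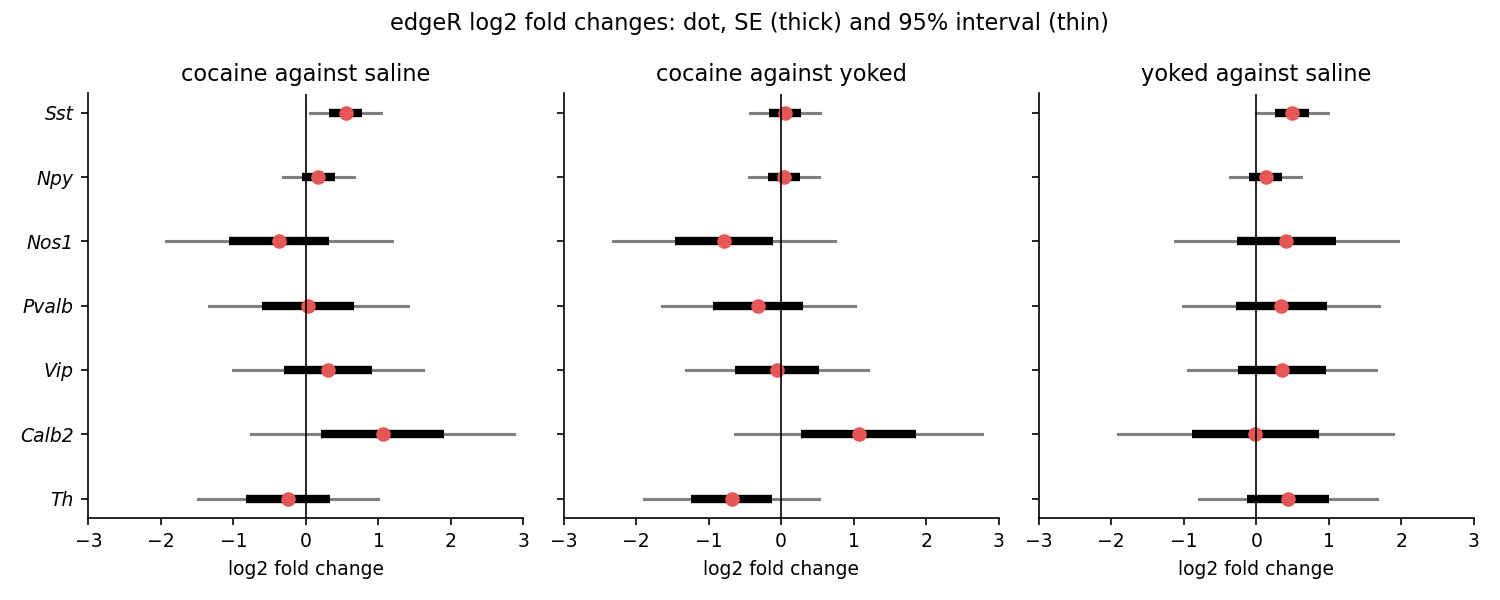
Log2 fold change by edgeR of each member in the 3 comparisons, with its standard error (thick) and 95% interval (thin, not adjusted over genes). The interval of Sst runs from 0.05 to 1.04 in cocaine against saline and from 0.0017 to 0.99 in yoked against saline. It crosses 0 in cocaine against yoked, and those of the other 6 genes cross 0 in each comparison.

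None of the 7 genes had 2 groups whose libraries did not overlap. Over all genes tested, 11.1% did not overlap in cocaine against saline, 6.47% in cocaine against yoked and 6.9% in yoked against saline. At an unadjusted p under 0.05, 1 of 7 members (Sst) was found in cocaine against saline, 0 in cocaine against yoked and 1 (Sst) in yoked against saline. The median log2 fold change of the members was 0.17, -0.06 and 0.36 in the 3 comparisons, against 0.0036, -0.03 and 0.03 over all genes.

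Of the further interneuron genes, 19 were tested and none was called. The fitted direction was higher for 5 and lower for 14 in cocaine against saline (median -0.19), 2 and 17 in cocaine against yoked (median -0.44), and 15 and 4 in yoked against saline (median 0.24). Glial genes leaned the same way in the comparisons with yoked libraries. In cocaine against yoked 6 of 6 astrocyte, 6 of 6 oligodendrocyte and 6 of 6 microglial genes had a fitted value below 0 (medians -0.81, -0.52 and -0.62), as did 6 of 6 D2 medium spiny neuron genes. In yoked against saline 6, 6 and 5 of the 6 glial genes of each list had one above 0 (medians 0.74, 0.57 and 0.65). Over all genes the medians of these 2 comparisons were -0.03 and 0.03. The yoked libraries did not share a level: the glial sum was 741, 1594 and 313 CPM in yoked 1, 2 and 3. Yoked 2 thus held the highest and yoked 3 the lowest of the 9 pull-downs. The 4 cholinergic genes had a fitted value below 0 in both comparisons (medians -0.76 and -1.24). The part of glial RNA in the lean of the interneuron genes was not tested. Elfn1, a synaptic protein of Sst interneurons, was at an unadjusted p under 0.05 in cocaine against saline (log2 fold change -1.33, SE 0.54) and in yoked against saline (-1.28, SE 0.54), and Erbb4, a neuregulin receptor, in cocaine against yoked (-0.51, SE 0.19). Of 9 receptor genes tested, Sstr4 alone was at that level, in cocaine against saline (-0.56, SE 0.24) and yoked against saline (-0.52, SE 0.23). Elfn1 stood at 14.6 CPM in saline 2, at 5.21 and 2.61 CPM in saline 1 and 3, and at 1.5 to 4.96 CPM in the other 6 pull-downs. Saline 2 is the library with 80.9 CPM of cholinergic markers, whose part in the Elfn1 value was not tested. Sstr4 was also highest in saline 2, at 15.6 CPM, with 10.3 and 10.9 CPM in saline 1 and 3. These genes are named for an unadjusted p and did not pass the test.

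The libraries of a replicate number share an index sequence across the groups, and their levels were compared too. An edgeR fit with the group and the replicate number called 132 of 14680 genes (0.899%) for the number, and 11% were at an unadjusted p under 0.05. Of the 7 members 0 were called and 0 were at an unadjusted p under 0.05, with p from 0.101 for Vip to 0.955 for Npy by edgeR. The fitted spread between numbers was 1.28 on the log2 scale for Vip, 1.22 for Nos1, 1.07 for Pvalb and 0.07 for Npy. Between numbers 1 and 2 the libraries of 1 of the 7 members (Vip) did not overlap, against 11.4% of all genes tested. The same held for 1 member (Th) between numbers 1 and 3, against 16.7%, and for 1 (Vip) between numbers 2 and 3, against 17.2%. The 132 called genes rest on few libraries: without cocaine 1 there were 4, without saline 2 there were 75 and without cocaine 3 there were 77.

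Of the further interneuron genes, 3 of 19 differed with the replicate number, against 0.899% of all genes tested. Sox6 was lower in number 3 than in number 2 by a log2 value of -2.53 (edgeR adjusted p = 0.0135), Prox1 by -2.16 (adjusted p = 0.0245), and Reln was higher by 0.79 (adjusted p = 0.0472). Of the receptors 1 of 9 differed, Npy2r, higher by 1.20 (edgeR adjusted p = 0.0296). Genes of other cells also differed with the number: 5 of 6 oligodendrocyte, 3 of 6 astrocyte and 3 of 4 cholinergic genes were called. So were 1 of 6 D1 and 1 of 6 D2 medium spiny neuron genes and 1 of 2 pituitary genes tested. None of the 6 microglial, 4 vascular, 5 cortical glutamatergic and 2 hypothalamic genes tested was called. The glial sum was 313 to 372 CPM in number 3 against 601 to 1594 CPM in number 2. The part of these other cells in the values of Sox6 and Prox1 was not tested. The summed level of the 10 receptors was 35.2 to 37.1 CPM in the number 2 libraries, 46.4 to 47.6 CPM in number 1 and 56.7 to 58.9 CPM in number 3. This sum was not tested, and no share over all genes was computed for sums. Its largest term, Npy1r, had means of 18.6, 10.7 and 21.1 CPM in numbers 1, 2 and 3. Npy1r was not called (edgeR adjusted p = 0.0654).

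**Figure D5:**
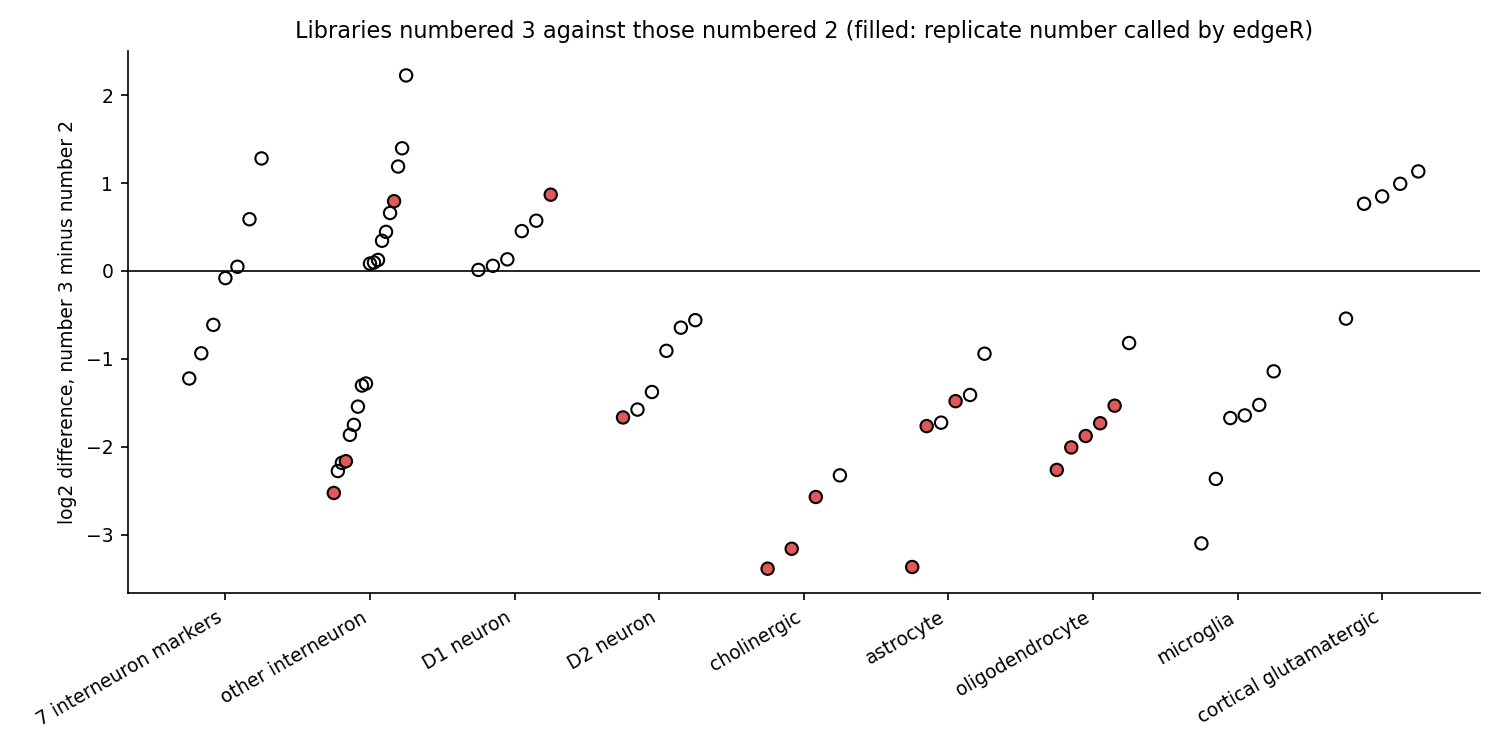
Log2 difference of the number 3 libraries from the number 2 libraries (vertical axis) for each tested gene of 9 marker lists, 1 point a gene, filled where the replicate number was called by edgeR. The 7 members lie on both sides of 0 with none called, while astrocyte, oligodendrocyte and microglial genes lie below 0.

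The members did not form a single pattern over the 9 pull-downs. Nos1 and Th were the most alike pair (Pearson r = 0.89 of log2 CPM, 9 libraries), Npy and Pvalb had r = 0.79, and Nos1 and Vip r = -0.57. Sst had r = 0.38 with Npy and r = 0.16 with Nos1, the genes made with it in the low-threshold class. Sst and Th, whose promoters both hold the full cAMP response element shown above, had r = -0.0012. The part of that element in their levels was not tested.

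Among 10967 genes searched, those with the library pattern most like each member were Slc9a9 (r = 0.877) and Mtif3 (0.862) for Sst, Rtkn (0.957) and Tmem109 (0.940) for Npy, Myo7a (0.979) and Mki67 (0.978) for Nos1, and Fam214a (0.901) and Tnip2 (0.900) for Pvalb. For Vip they were Abhd6 (0.941) and Afmid (0.926), for Calb2 Diablo (0.949) and Alkbh7 (0.941), and for Th Cry2 (0.974) and Trpc4ap (0.969). These are the highest of many values over 9 libraries, which share depth and composition, and are given as description.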

How the data were processed

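For 9 pull-downs and 1 input the authors deposited raw read counts by gene symbol. The submitters' processing notes name STAR 2.0.0e, HTSeq and the mm10 build. Whether strand was used in counting, and which annotation, is not given in the sources used here, so antisense and overlapping genes may share reads. The 6 rows naming no gene were dropped before any library size was computed.

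CPM was computed from gene counts. The ratio to the input adds 0.5 CPM to both. Intervals (95%) and the floor of 3 counts, 0.0663 to 0.239 CPM in the pull-downs, cover counting error only. Groups were tested with edgeR 4.0.16 (quasi-likelihood F test, TMM, filterByExpr, robust, all 9 pull-downs, group only) in R 4.3.3. The fit was also run on simulated counts with less spread between libraries than these data. That run does not measure power or error here. Alternatives were DESeq2 1.42.0, limma 3.58.1 (voom), other scaling, no filter, Rn45s left out, the 2 groups alone, a replicate block, other pseudocounts and folds, and leaving out each library.

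The 7 members are given in full; for each member the 2 genes of highest r are named. Of the interneuron, receptor, nitric oxide, catecholamine and GABA lists the 2 highest and 2 lowest ratios among genes with at least 50 input counts are named. The rule covered the other lists too, which are given here by counts, sums or medians only. Members and lists were chosen with earlier results of these data known. Promoter sequences are RefSeq's (GRCm38.p6), with 6 of 7 members matched.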

Additional observations from a re-analysis of the deposited data

Results flagged for a closer look

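Nos1 in yoked 2 stood apart from the other pull-downs. Its level was 18.3 CPM, the nearest other library held 9.98 CPM, and the gap was 0.495 of the range of the 9 libraries, just past Dixon's 95% critical value for 9 samples. Chance flags about 1 in 20 single sets of values and 7 genes were looked at, so a flag among them is not rare by chance. The same library held the highest level of Th and the highest summed level of the 18 glial genes, and their part in the Nos1 value was not tested.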

How the results depend on the processing

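Over 335 refitted member fold changes, 311 kept their direction, 24 reversed and 0 gained or lost a call; the smallest adjusted p was 0.727. With limma-voom, cocaine against saline was -0.32 for Pvalb, and yoked against saline was -0.064 for Nos1 and 0.19 for Calb2. Leaving out each library in turn, cocaine against saline ran from -0.079 to 0.29 for Npy, -0.58 to 0.74 for Pvalb and -0.26 to 0.61 for Vip. Cocaine against yoked ran from -0.13 to 0.25 for Sst, -0.21 to 0.16 for Npy, -1.30 to 0.080 for Nos1, -0.93 to 0.16 for Pvalb and -0.62 to 0.27 for Vip. Yoked against saline ran from -0.46 to 0.93 for Nos1, -0.52 to 0.42 for Calb2 and -0.15 to 0.91 for Th. For Th, cocaine against saline ran from -0.52 to -0.054 and cocaine against yoked from -1.15 to -0.096. The log2 fold change of Sst over cocaine against saline ran from 0.37 to 0.74. The cause was not tested.

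The count of genes called in cocaine against saline was 1 with DESeq2, 1 with only the 2 groups compared and 0 to 1 without single libraries, and in yoked against saline 0 to 1 without single libraries; in both the 1 came without yoked 3. For the replicate number, 666 genes were called with no filter, 484 with DESeq2 and 4 to 170 without single libraries; Nos1 was among them with no filter (adjusted p = 0.00107). The members at least 4-fold lower than the input in each pull-down were 1. Depth limits Calb2 and Vip.

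The replicate numbers did not pair all the libraries, since not every same-numbered pair correlated over 0.1. The main fit used the group only. Over 14680 genes the deviations from the group means correlated at 0.128 to 0.246 in the pairs of numbers 2 and 3, at -0.0168 to 0.0534 in those of number 1, and at -0.254 to 0.151 in the 18 other pairs. Each library of numbers 2 and 3 correlated best with its own number, but cocaine 1 and yoked 1 with a number 2 library, a hint from the data and not the design. With the replicate block, 1 gene was called in each of the 3 comparisons, and no member; Sst was 0.54 for cocaine against saline (adjusted p = 0.998).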
